A study of Homo sapiens with 12 samples.

Results

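MDA-MB-231, a triple-negative breast cancer cell line, was transfected with siRNA pools in 4 groups of 3 libraries each, and the question addressed here is whether the transcriptome after knockdown of NELFA and YAP together (siNELFA+siYAP, the double knockdown) equals the sum of what each knockdown did alone. The groups were siControl (a non-targeting pool), siNELFA, siYAP and siNELFA+siYAP; all 12 libraries share the transfection, at 50 to 100 nM siRNA, and the labels name harvests at 48 h and 72 h, the later of which the methods give for sequencing. For each gene, the log2 fold change of siNELFA against siControl and that of siYAP against siControl were added, and the deviation is the log2 fold change of the double knockdown minus this sum. Genes with a mean of 50 or more counts over the 12 libraries were described, 12971 of 58051 listed, and 18525 genes passed the filter on low counts and were tested.

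NELFA is a subunit of the negative elongation factor NELF, which holds RNA polymerase II shortly after the start site until P-TEFb releases it into elongation. YAP is a transcriptional co-activator restrained by the Hippo pathway, and with the TEAD DNA-binding proteins it drives genes such as CTGF, CYR61 and ANKRD1. If both act on a gene independently and by factors, their log2 changes add.

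Total counts per library ran from 9608145 to 18803104. Replicate 1 of siControl, siNELFA and siYAP stood apart: over the described genes, log2 levels of these 3 libraries correlated with each other at 0.954 to 0.973, but with replicates 2 and 3 of the 3 groups at only 0.882 to 0.925. The double knockdown libraries correlated with each other at 0.992 to 0.993, with replicates 2 and 3 of the other groups at 0.964 to 0.989, and with replicate 1 at 0.892 to 0.918. No double knockdown library thus resembled replicate 1, although the library names of all 3 carry the number 1. The biological coefficient of variation among the double knockdown libraries was 0.0576 against 0.302 to 0.321 in the other groups, each with its replicate 1 included. Replicates 2 and 3 of those groups correlated with each other at 0.965 to 0.991. Counts of the double knockdown libraries nevertheless varied by 14.3 times the sampling variance, so these are not 1 library deposited again. The methods describe independent biological replicates, but nothing in the library names shows separate cultures for the double knockdown. The p-values rest on a spread between libraries pooled over the 4 groups, and the part from the double knockdown may be technical. A shift between the cultures of the double knockdown and those of the other groups cannot be told apart from a deviation, and the main results are therefore given for all 12 libraries and for the 9 that remain without replicate 1 of the other 3 groups. The line carried its mesenchymal markers (VIM at 1140 to 1860 CPM, read counts scaled to a common library size) except TWIST1, at 1 count in all. The summed levels of 10 such markers were 5620 to 6830 CPM, and those of 14 luminal epithelial markers 509 to 615 CPM. Of the latter, KRT8 was at 150 to 243 CPM and KRT18 at 135 to 187, while ESR1, PGR, FOXA1 and GRHL2 reached at most 6 counts in any library. CDH1, an epithelial cadherin, had 230, 599 and 169 counts in replicate 1 of siControl, siNELFA and siYAP and at most 17 in the 9 other libraries. The part of that difference in the results was not tested. In bulk RNA, fewer cells of a type and less RNA per cell cannot be told apart.

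For most genes the double knockdown lay within 0.5 log2 of the sum. In all 12 libraries, the median deviation was -0.0072 log2, and 11187 of the 12971 genes (86.2%) were within 0.5 log2 of the sum, 12594 (97.1%) within 1. In the 9 libraries the median was -0.015, with 12329 genes (95.1%) within 0.5 and 12911 (99.5%) within 1. The scaling by TMM factors takes most genes as unchanged between libraries, so a median near 0 was largely set in advance. Such a median does not show how close single genes lie to the sum, and the factors also enter the deviation of each gene. On log2 of the deposited TPM values, scaled without these factors, the median was 0.13 in 12 libraries and 0.10 in 9. There 83.1% of the genes lay within 0.5 of the sum in 12 libraries at a pseudocount of 1, and 77.6% at 0.1. From the 5th to the 95th percentile the deviation spanned -0.74 to 0.44 in 12 libraries and -0.41 to 0.35 in 9. The sum itself spanned -0.73 to 0.87 in 12 libraries and -0.63 to 0.67 in 9. The double knockdown spanned -0.80 to 0.63 in 12 libraries and -0.67 to 0.60 in 9. In 12 libraries the deviation was therefore spread nearly as widely as the changes themselves. The median standard error of a deviation was 0.33 in 12 libraries and 0.19 in 9.

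**Figure D1:**
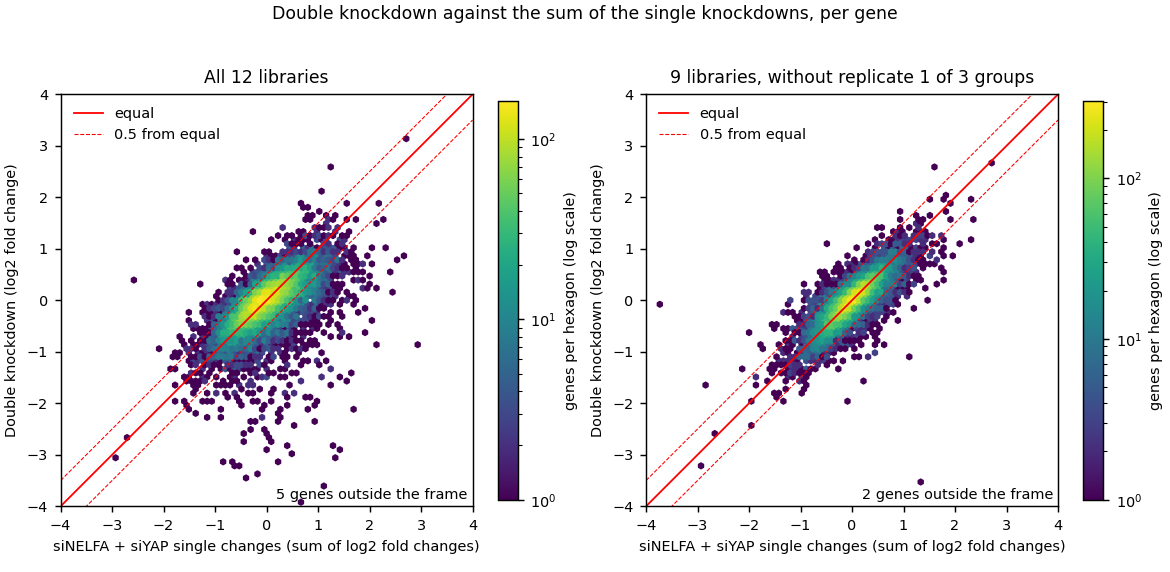
Each hexagon counts genes by the sum of the single log2 fold changes (horizontal axis) and the log2 fold change of the double knockdown (vertical axis), in all 12 libraries on the left and in 9 libraries on the right; the red line marks equality and the dashed lines 0.5 log2 from it. In the right panel 95.1% of the genes lie between the dashed lines, against 86.2% in the left panel, where a tail of genes falls below.

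No gene passed the adjusted threshold of 0.05 for its deviation in either set of libraries by edgeR's quasi-likelihood test with Benjamini-Hochberg adjustment (0% of the genes tested; the smallest adjusted p was 0.9997 in 12 libraries), and none did by DESeq2. At an unadjusted p under 0.05, edgeR gave 176 of the 12971 genes in 12 libraries (1.36%, against 1.76% of all genes tested) and 354 in 9 libraries (2.73%, against 2.95%), and DESeq2 gave 234 and 229. With no deviation at all, a calibrated test would give a share of about 0.05, and the edgeR shares lie below it. The fit had no term for the replicate number, so its errors may be too wide. With a replicate block by title numbers, the count in 12 libraries was 483. A missed threshold does not show that the double knockdown equals the sum: the 95% confidence interval of the deviation lay within 1 log2 on either side for 7218 genes (55.6%) in 12 libraries and 11164 (86.1%) in 9, but within 0.5 for only 828 (6.38%) and 5461 (42.1%). For the remaining genes the interval reached past 0.5 log2 on at least 1 side, and a deviation of that size was not excluded by it.

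The same question can be put without shared libraries, by setting the effect of one siRNA alone beside its effect on top of the other. In the 9 libraries, siNELFA against siControl and siNELFA+siYAP against siYAP correlated across the genes at Pearson r = 0.724, and siYAP against siControl and siNELFA+siYAP against siNELFA at 0.408; in 12 libraries the values were 0.431 and 0.132. Genes are not independent replicates here, and siYAP had the smaller effects, with 967 genes (7.46%; 6.54% of the genes tested) at p under 0.05 against 3079 (23.7%; 18.4%) for siNELFA. The 1605 genes higher in siNELFA at that p had a median change of 0.39 alone and 0.33 on top of siYAP, and 1555 of them kept their sign. The 1474 lower genes had medians of -0.43 and -0.42, with 1433 of the same sign. For siYAP, the 482 higher genes went from 0.41 alone to 0.23 on top of siNELFA, and the 485 lower genes from -0.33 to -0.21. Choosing genes on the first contrast enlarges it, and choosing on the second reversed the order. Added to siYAP, siNELFA had 4408 of the 12971 genes at p under 0.05 (34.0%, against 26.4% of all genes tested), and siYAP added to siNELFA had 1874 (14.4%, against 11.8%). The 1139 genes lower when siYAP was added to siNELFA had a median of -0.36 there and -0.14 in siYAP alone. Neither selection therefore shows that one siRNA weakens the other.

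Genes that both siRNAs moved the same way ended short of the sum on average, as genes selected for large single changes. In the 9 libraries, 153 genes were higher in both single knockdowns at p under 0.05, with a median sum of 0.89 and a median of 0.68 in the double knockdown; all 153 were higher there too. The 95 genes lower in both had a median sum of -0.73 and reached -0.60. In 12 libraries the 93 genes higher in both had a median sum of 1.11 and reached 0.71, and the 42 lower in both had -0.89 and reached -0.61. Where the siRNAs opposed each other, the double knockdown stayed near siControl. The 65 genes higher in siNELFA and lower in siYAP had single medians of 0.37 and -0.33, a sum of 0.0053 and a double knockdown change of 0.11, and 1 of them was more than 0.5 from the sum.

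For both targeted genes the double knockdown lay within error of the sum. NELFA stood at 25.3, 27.5 and 27.9 CPM in siControl replicates 1 to 3, at 9.96, 9.05 and 7.11 in siNELFA, at 33.8, 25.3 and 22.2 in siYAP, against 8.20, 6.73 and 6.35 in the double knockdown. No siNELFA or double knockdown library overlapped siControl or siYAP. NELFA fell by 1.63 on the log2 scale in siNELFA (adjusted p = 0.0151, edgeR) and by 1.93 in the double knockdown, and its deviation was -0.30 ± 0.28 (SE, 12 libraries of 4 groups), or 0.017 ± 0.23 in the 9 libraries. YAP1 was at 302, 269 and 247 CPM in siControl and 292, 247 and 254 in siNELFA, and at 46.2, 45.5 and 37.7 in siYAP, against 44.1, 40.7 and 40.1 in the double knockdown. It fell by 2.66 in siYAP and by 2.71 in the double knockdown, with a deviation of -0.0054 ± 0.19 and a 95% confidence interval from -0.41 to 0.40, and of 0.034 ± 0.14 in the 9 libraries. The depth of neither knockdown differed from the sum beyond these errors. ALDH9A1, an aldehyde dehydrogenase, was at 9.25, 12.7 and 10.5 CPM in siNELFA and 9.19, 10.3 and 9.30 in the double knockdown, against 68.3 to 93.3 in the 6 libraries without siNELFA. It fell by 2.92 in siNELFA, was at 0.012 in siYAP and fell by 3.09 in the double knockdown, a deviation of -0.18 ± 0.24, or -0.28 ± 0.17 in the 9 libraries.

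CTGF, CYR61 and ANKRD1 are the YAP targets the study measured. CTGF encodes a secreted matricellular growth factor, CYR61 a related matricellular protein and ANKRD1 a nuclear ankyrin repeat protein. The promoters of CTGF and ANKRD1 are shown because YAP reaches DNA through TEAD proteins, whose core motif GGAATG they hold; the 250 bases before the start are from RefSeq on GRCh38.p14, 5′ to 3′ on the minus strand, with the motif in capitals (searched on both strands, no overlapping matches). The promoter set used held no entry for CYR61, so its promoter was not searched for the motif. The CTGF promoter is chr6:131951373-131951622 and that of ANKRD1 is chr10:90921088-90921337.
CTGF: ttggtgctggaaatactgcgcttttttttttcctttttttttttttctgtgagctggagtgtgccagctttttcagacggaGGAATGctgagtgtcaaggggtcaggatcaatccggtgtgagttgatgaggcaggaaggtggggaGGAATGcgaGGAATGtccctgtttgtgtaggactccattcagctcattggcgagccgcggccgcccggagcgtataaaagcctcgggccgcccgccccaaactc
ANKRD1: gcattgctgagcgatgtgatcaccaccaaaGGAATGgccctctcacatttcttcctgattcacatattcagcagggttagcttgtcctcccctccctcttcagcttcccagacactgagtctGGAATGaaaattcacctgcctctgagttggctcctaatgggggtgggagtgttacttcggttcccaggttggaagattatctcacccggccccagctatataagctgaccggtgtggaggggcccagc

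The CTGF promoter holds 3 such matches and that of ANKRD1 2, whereas 4175 of 35116 promoters of this length (11.9%) hold at least 1. Of the genes described here, 9767 matched a promoter by symbol and 918 of these (9.4%) hold the motif. The median deviation was 0.0015 with the motif and -0.005 without it in 12 libraries, and -0.010 and -0.016 in 9. A match is a description of the letters in this window and not of a bound site.

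CTGF was the clearest case of opposed effects. It stood at 108, 133 and 124 CPM in siControl, at 266, 278 and 350 in siNELFA, at 54.1, 78.5 and 64.8 in siYAP, against 154, 151 and 147 in the double knockdown. The 4 groups did not overlap, and the double knockdown lay between siControl and siNELFA. CTGF rose 2.45-fold in siNELFA (log2 1.29, adjusted p = 0.0151, edgeR) and was at 0.541-fold in siYAP (log2 -0.89, adjusted p = 0.617). The sum gives 1.33-fold and the double knockdown was at 1.24-fold, a deviation of -0.10 ± 0.23 with a 95% confidence interval from -0.60 to 0.39. In the 9 libraries, in which siYAP passed the threshold as well (log2 -0.84, adjusted p = 0.0281), the deviation was -0.23 ± 0.16.

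CYR61 followed CTGF in direction. Its levels were 831, 725 and 780 CPM in siControl, 2081, 1059 and 1312 in siNELFA, 728, 479 and 525 in siYAP, against 799, 852 and 793 in the double knockdown, which overlapped siControl. Replicate 1 of siNELFA was the highest library, and leaving out replicate 1 of the 3 groups moved the deviation from -0.43 ± 0.32 to 0.035 ± 0.13. In those 9 libraries CYR61 rose 1.59-fold in siNELFA (adjusted p = 0.00395, edgeR), was at 0.668-fold in siYAP (adjusted p = 0.0749) and at 1.09-fold in the double knockdown, where the sum gives 1.06-fold.

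ANKRD1 was lower with siYAP and close to siControl with siNELFA alone. It was at 429, 335 and 343 CPM in siControl, 418, 334 and 321 in siNELFA, 297, 208 and 170 in siYAP, against 167, 163 and 167 in the double knockdown, below each of the 9 other libraries. In the 9 libraries it fell by 0.84 in siYAP (adjusted p = 0.0049, edgeR) and by 1.03 in the double knockdown (adjusted p = 2.07e-05). Its deviation was -0.15 ± 0.12 there and -0.40 ± 0.28 in 12 libraries.

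**Figure D2:**
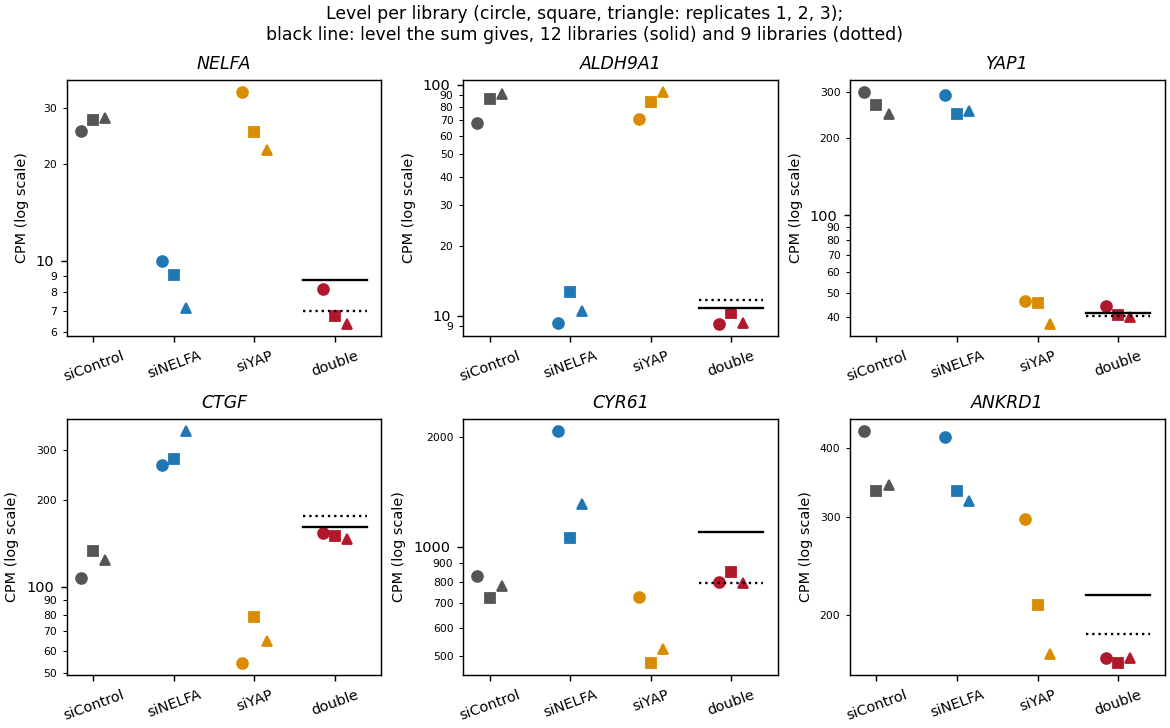
Levels in CPM (log axis) of the siRNA targets NELFA and YAP1, of ALDH9A1 and of CTGF, CYR61 and ANKRD1 in each of the 12 libraries, by group; circles, squares and triangles are replicates 1, 2 and 3. The black lines give the level the sum predicts for the double knockdown, from 12 libraries (solid) and from 9 (dotted); for CYR61 the 2 lines differ most, at 1.41-fold and 1.06-fold of siControl.

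Over a wider list of 30 YAP and TEAD targets, all measured, siNELFA and siYAP also pulled in opposite directions. In the 9 libraries, 7 rose and 1 fell in siNELFA and 4 fell in siYAP at the adjusted threshold, and 2 rose and 10 fell in the double knockdown (over all described genes, 349 rose and 285 fell in siNELFA, 1 and 9 in siYAP, 1331 and 1587 in the double knockdown; of the genes tested 3.49%, 0.054% and 16.5% passed). The list's median change was 0.19 in siNELFA, -0.32 in siYAP, -0.074 as a sum and -0.18 in the double knockdown. Its median deviation was -0.084 in 9 libraries, where 29 of the 30 genes were within 0.5, and -0.16 in 12, against -0.015 and -0.0072 over all genes. TGFB2, a TGF-beta ligand, was at 0.66 in siNELFA, -1.08 in siYAP and -0.13 in the double knockdown, with a deviation of 0.28 ± 0.23. THBS1, which encodes thrombospondin, was at 0.69, -0.63 and -0.02, with a deviation of -0.08 ± 0.16. FOSL1, an AP-1 subunit, was the only target with an unadjusted p under 0.05 (-0.33 ± 0.13 in 9 libraries, adjusted p = 0.9998, edgeR). IGFBP3, an insulin-like growth factor binding protein, had the lowest deviation of the list in 12 libraries, -2.49 ± 1.40, which shrank to -0.63 ± 0.48 in 9 libraries.

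The pausing machinery lay close to the sum, with 29 of 30 genes within 0.5 in 12 libraries, a median deviation of 0.0038 and a lowest of -0.92. Among 30 genes of NELF, DSIF, P-TEFb and the 7SK complex, 2 fell in siNELFA, 1 of them NELFA itself, and 5 in the double knockdown in the 9 libraries (3.49% and 16.5% of the genes tested passed, in either direction), with a median deviation of -0.0029 and all 30 within 0.5. MLLT1, a subunit of the super elongation complex, was at -0.17 in siYAP and fell by 1.31 in the double knockdown, with a deviation of -0.15 ± 0.19. Most of its fall was therefore already present in siNELFA alone. The other NELF subunits were at -0.25 (NELFB), -0.0017 (NELFE) and -0.021 (NELFCD) in the double knockdown. The Integrator complex, with 17 genes, and 30 genes of the Hippo pathway and the TEADs had median deviations of 0.11 and 0.032 in 12 libraries and 0.027 and 0.00037 in 9.

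Which functions lean from the sum depended on the libraries. Because the replicate numbers pair siControl, siNELFA and siYAP but not the double knockdown, the deviation was also taken within each number, with the mean of the 3 double knockdown libraries; each such value rests on 1 library of each of the 3 groups and has no error of its own. Within 0.5 of the sum lay 46.3% of the genes for number 1, 85.6% for number 2 and 91.6% for number 3. Of 31 lists of functions, 5 had their median above the sum in all 3 numbers, 3 had it below in all 3, and 23 changed side. Over single genes, 1591 (12.3%) were above the sum in all 3 numbers and 1748 (13.5%) below. The 5 lists above were the mitochondrially encoded genes, the metallothioneins, the NF-kB and inflammatory genes, the Integrator complex and the Hippo pathway with the TEADs. No member of any list passed the adjusted threshold. The members of a list were measured in the same libraries and are not independent, so their counts are descriptions.

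**Figure D3:**
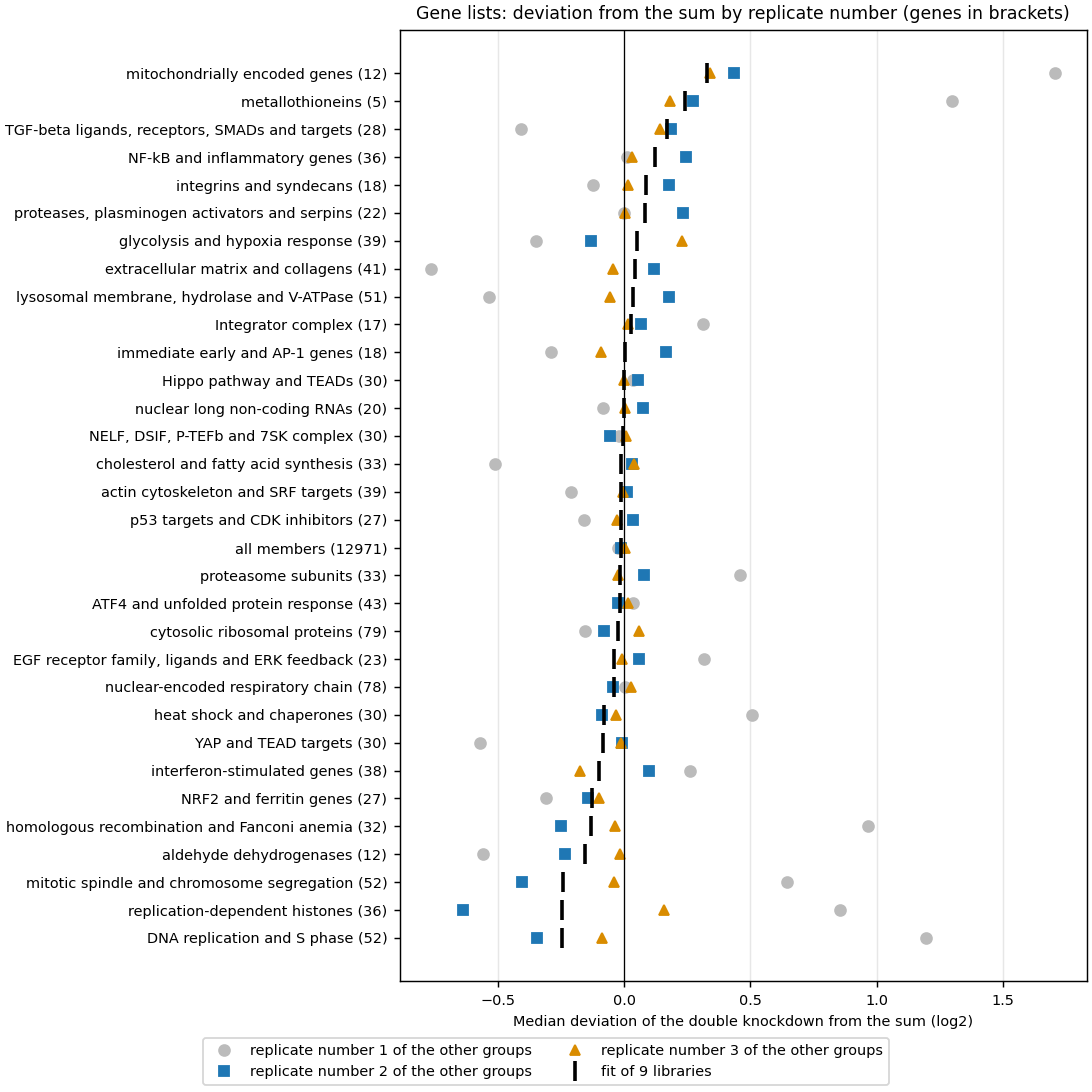
Median deviation of each gene list from the sum (log2, horizontal axis), with the number of genes in brackets; points are the values for replicate numbers 1, 2 and 3 of siControl, siNELFA and siYAP, and black ticks the fit of 9 libraries. The mitochondrially encoded genes lie above 0 for each number, at 1.71, 0.44 and 0.34, whereas the histones change from 0.85 to -0.64 and 0.16.

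Mitochondrially encoded genes were the list furthest above the sum. These genes encode respiratory chain and ATP synthase subunits and are transcribed inside the mitochondrion. All 12 measured genes were above the sum in 12 libraries, with a median deviation of 0.73 and 4 at p under 0.05 (0.653% of the genes tested were above the sum at that p), and 11 were above in 9 libraries, with a median of 0.33 and 7 at p under 0.05 (1.39%). The counts of genes above the sum within numbers 1, 2 and 3 were 12, 12 and 10. The list's sum was -0.32 in 9 libraries, from medians of -0.09 in siNELFA and -0.22 in siYAP, while the double knockdown was at 0.027. MT-ND4, a complex I subunit, was at 200, 149 and 147 CPM in siControl, 151, 124 and 143 in siNELFA, 83.7, 122 and 113 in siYAP, against 144, 157 and 136 in the double knockdown. The siYAP libraries were lowest and the double knockdown overlapped siControl. Its deviation was 0.70 ± 0.24 (adjusted p = 0.9997, edgeR) in 12 libraries and 0.45 ± 0.13 in 9. MT-CO2, a cytochrome oxidase subunit, had 0.56 ± 0.19 and 0.42 ± 0.13. MT-ND1 reached 1.13 ± 0.48 and 0.74 ± 0.21, with its double knockdown libraries, at 66.7 to 69.9 CPM, above the 9 others (2.05% of the genes tested had all 3 above), whereas MT-ND3 had 0.34 ± 0.56 and -0.12 ± 0.23. Mitochondrial genes took a small part of the counts, 0.0930% to 0.0957% in siControl, 0.0673% to 0.0926% in siNELFA, 0.0445% to 0.0830% in siYAP and 0.0916% to 0.0974% in the double knockdown, and siYAP replicate 1 held the lowest. Nuclear copies of the mitochondrial genome share sequence with these genes, so the split of reads between them is uncertain. The 78 nuclear-encoded respiratory chain genes had median deviations of -0.019 and -0.042, with 34 genes above the sum and 44 below in 12 libraries.

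Metallothioneins, small metal-binding proteins, were also above the sum, all 5 measured in 12 libraries and in 9, with medians of 0.51 and 0.24. MT2A was at 71.7, 345 and 401 CPM in siControl, 123, 380 and 434 in siNELFA, 106, 353 and 366 in siYAP, against 434, 474 and 439 in the double knockdown. Replicate 1 was far lower than replicates 2 and 3 in each of the first 3 groups, and the double knockdown was the highest. MT2A deviated by 0.51 ± 0.87 in 12 libraries and 0.19 ± 0.12 in 9. For MT1X the values were 0.44 ± 0.45 and 0.34 ± 0.13, with an adjusted p of 0.9998 in the latter by edgeR. The metallothionein genes are near-identical copies, and reads may be split among them.

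Genes of cell division fell in the double knockdown, and whether they fell more than the sum differed between replicate numbers. Of 52 spindle and chromosome segregation genes, 48 fell in the double knockdown in the 9 libraries and 8 in siNELFA; of 52 genes of DNA replication and S phase 40 and 8; of 36 replication-dependent histones 33 and 9; and none in siYAP. Over all 12971 genes, 1587 fell in the double knockdown and 285 in siNELFA (16.5% and 3.49% of the genes tested passed, in either direction). In these libraries the spindle list stood at -0.35 with siNELFA, at -0.12 with siYAP, at -0.69 with both, with a median deviation of -0.24; 49 of the 52 genes were below the sum, 6 at p under 0.05 (1.56% of the genes tested were below the sum at that p). The replication list had -0.25, with 47 below and 7 at that p, the histones -0.25 with 30 of 36 below, and 32 genes of homologous recombination and Fanconi anemia had -0.13, with 29 below.

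The lean was largest within replicate number 2. There the median deviation of the spindle list was -0.41, with 51 of 52 genes below the sum, but within number 3 it was -0.041 with 31 below, and within number 1 it was 0.65 with 47 above. The replication list gave 1.20, -0.35 and -0.087 in numbers 1, 2 and 3. In 12 libraries its median was 0.087 and that of the spindle list 0.0072. The libraries differ in these genes before any knockdown: relative to siControl replicates 2 and 3, the spindle list stood at -0.32 in siControl replicate 1 and the replication list at -1.16. Double knockdown libraries lay close together, at -0.68, -0.69 and -0.63 for the spindle list, while siNELFA ran from -0.82 to -0.18 and siYAP from -0.79 to 0.04. MKI67, a marker of cycling cells, was at 690, 1165 and 1030 CPM in siControl, 392, 884 and 735 in siNELFA, 566, 1198 and 999 in siYAP, against 641, 640 and 653 in the double knockdown. Its deviation was 0.0051 ± 0.45 in 12 libraries and -0.34 ± 0.14 in 9. KIF11, a spindle motor, was at -0.16 ± 0.33 and -0.47 ± 0.19, and PCNA, the replication clamp, at 0.049 ± 0.69 and -0.40 ± 0.14.

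**Figure D4:**
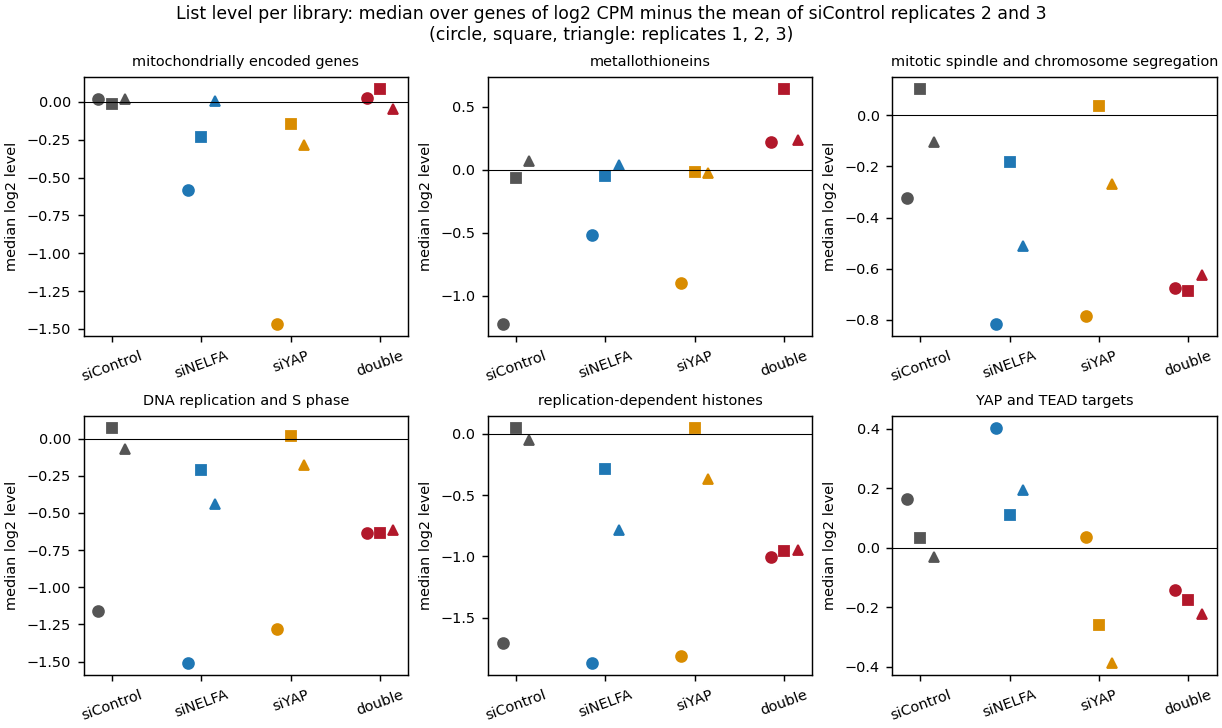
Level of 6 gene lists in each library: the median over the genes of log2 CPM minus the mean of siControl replicates 2 and 3 (vertical axis, log2), by group; circles, squares and triangles are replicates 1, 2 and 3. The 3 double knockdown libraries lie together, at -0.63, -0.63 and -0.62 for DNA replication, while replicate 1 of the other groups lies at -1.16, -1.51 and -1.28.

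Below the sum in all 3 numbers were NRF2 targets and ferritins, aldehyde dehydrogenases and, by -0.57, -0.0074 and -0.012, the YAP targets. For 27 NRF2 and ferritin genes, which serve the oxidative stress response and iron storage, the median deviation was -0.22 in 12 libraries and -0.13 in 9, with 19 and 20 genes below. For 12 aldehyde dehydrogenases it was -0.20 and -0.16, with 11 and 10 below, but within number 3 it was -0.016. None of the 12 had an unadjusted p under 0.05 in either set. ALDH4A1, of proline breakdown, deviated by -0.53 ± 0.30 and -0.38 ± 0.27, and ALDH3A2, a fatty aldehyde dehydrogenase, by -0.62 ± 0.54 and -0.31 ± 0.20.

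Lists of invasion and signaling had medians that differed between the 12 and the 9 libraries. Among them, the NF-kB and inflammatory list was nevertheless above the sum in all 3 numbers. For 41 extracellular matrix genes the median deviation was -0.39 in 12 libraries and 0.041 in 9, with 17 rising and 2 falling in the double knockdown in 9 (1331 and 1587 over all 12971 genes; 16.5% of all genes tested passed in either direction). COL1A2, a fibrillar collagen chain, had the lowest deviation, -4.63 ± 2.34, which shrank to -1.42 ± 0.65 in 9 libraries, and LOXL1, a matrix cross-linking enzyme, one of the steadier ones, -1.17 ± 0.38 and -1.10 ± 0.31. The 28 genes of TGF-beta signaling gave -0.064 in 12 libraries and 0.17 in 9, with PMEPA1, a feedback inhibitor, at 1.12 ± 0.63 and 0.90 ± 0.57. For 36 NF-kB and inflammatory genes, 22 of which rose in the double knockdown and 10 in siNELFA in 9 libraries (1331 and 349 over all 12971 genes), the median was -0.00058 and 0.12, and within the numbers 0.013, 0.25 and 0.031. CCL20, a chemokine, was at 3.47, 3.08 and 4.76 CPM in siControl, 7.92, 7.21 and 17.7 in siNELFA, 1.73, 2.00 and 5.43 in siYAP, against 25.001, 25.5 and 20.2 in the double knockdown. It was higher in each double knockdown library than in the 9 others, and deviated by 1.39 ± 0.63 and 0.97 ± 0.58. In the list of 18 integrins and syndecans, 9 genes were above the sum and 9 below in 12 libraries, with a median of -0.020. In 9 libraries 15 were above and 3 below, with a median of 0.087. Against that lean, GPC1, a glypican, and ITGB4, the beta-4 integrin, were below the sum in both sets, at -1.63 ± 0.61 and -0.47 ± 0.19, and -0.94 ± 0.37 and -0.40 ± 0.13. The 79 cytosolic ribosomal protein genes had medians of -0.065 and -0.025, with all 79 within 0.5 in both sets.

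The genes furthest from the sum by p, none of them past the adjusted threshold, were selected on a contrast that favors single knockdown levels opposite to the deviation, so the signs that follow describe the selection and support nothing. Of the 54 genes above the sum at p under 0.05 in 12 libraries, 41 were lower than siControl in both single knockdowns, and their median changes were -0.26 in siNELFA, -0.41 in siYAP and 0.042 in the double knockdown. Of the 122 below it (0.941%, against 1.11% of all genes tested), 102 were higher in both, at 0.34, 0.49 and -0.051. In 27 of the 54 and 68 of the 122, the double knockdown change was smaller in size than either single change. In 9 libraries the shares were lower, with 101 of 144 and 114 of 210 having both single changes opposite to the deviation, and 59 of 144 and 55 of 210 the smaller double knockdown change. Between the 12-library and the 9-library lists, which share libraries, 78 genes were common, 44.3% of the 176 and 22.0% of the 354, all with the same sign.

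Above the sum, SHH, which encodes the Sonic hedgehog ligand (chr7:155799980-155812463 on GRCh38, minus strand), was at 1.73, 2.75 and 3.52 CPM in siControl, 2.04, 2.48 and 3.36 in siNELFA, 2.31, 1.93 and 2.84 in siYAP, against 6.46, 5.94 and 8.07 in the double knockdown. All 3 double knockdown libraries lay above the 9 others. It was at 0.975-fold in siNELFA, 0.874-fold in siYAP and 2.52-fold in the double knockdown, and its deviation was 1.57 ± 0.45 (adjusted p = 0.9997, edgeR) in 12 libraries and 1.61 ± 0.41 in 9. The gene averaged 55.8 counts, close to the limit of 50. Within the 3 numbers its deviation was 1.31, 1.96 and 1.32.

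APOBEC3F, a cytidine deaminase whose reads may be shared with its close paralogs, was at 5.85, 5.84 and 7.09 CPM in siControl, 5.02, 4.38 and 4.44 in siNELFA, 8.08, 5.99 and 6.23 in siYAP, against 9.52, 9.09 and 9.73 in the double knockdown. Again the double knockdown lay above each other library, although siNELFA alone was lowest, and the deviation was 0.93 ± 0.28 and 1.17 ± 0.27. EIF4E3, a cap-binding translation factor, was at 0.616-fold in siNELFA, 0.558-fold in siYAP and 0.832-fold in the double knockdown (1.28 ± 0.41 and 1.14 ± 0.40). Others were the zinc finger gene ZNF654 (0.68 ± 0.22 and 0.41 ± 0.16), PCOLCE2, a procollagen processing enhancer (0.83 ± 0.29 and 0.50 ± 0.24), PRKACB, a catalytic subunit of protein kinase A (0.78 ± 0.28 and 0.33 ± 0.16), the non-coding genes LINC00342 (1.63 ± 0.59 and 1.02 ± 0.44), RP5-1085F17.3 (0.96 ± 0.30 and 0.97 ± 0.28) and RP11-135F9.3 (1.09 ± 0.30 and 1.15 ± 0.32), and NPM1P27, a processed pseudogene whose reads may belong to NPM1 (1.15 ± 0.37 and 0.72 ± 0.28).

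Below the sum, NUP210, a nuclear pore membrane protein (chr3:13316235-13420322 on GRCh38, minus strand), was at 52.1, 53.01 and 45.1 CPM in siControl, 70.4, 57.7 and 48.6 in siNELFA, 101, 58.6 and 59.9 in siYAP, against 39.6, 39.6 and 43.7 in the double knockdown. The double knockdown lay below the 9 others (1.83% of the genes tested had all 3 below). The single knockdowns were at 1.18-fold and 1.46-fold and the double at 0.818-fold, where the sum gives 1.72-fold, and the deviation was -1.07 ± 0.30 (adjusted p = 0.9997, edgeR) and -0.66 ± 0.16. C6orf132 was also below the 9 others, at 31.0 to 35.1 CPM in the double knockdown, and deviated by -0.63 ± 0.20 and -0.44 ± 0.15.

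CASZ1, a zinc finger transcription factor, was at 12.6, 10.5 and 10.8 CPM in siControl, 18.7, 18.0 and 15.4 in siNELFA, 17.7, 12.6 and 13.3 in siYAP, against 12.3, 13.2 and 9.68 in the double knockdown. Its double knockdown overlapped siControl and lay below all siNELFA libraries, with a deviation of -0.93 ± 0.28 and -0.80 ± 0.24. REEP6, an endoplasmic reticulum shaping protein (-1.66 ± 0.50 and -0.85 ± 0.32), TCN2, the vitamin B12 carrier transcobalamin (-1.34 ± 0.43 and -0.72 ± 0.33), and LMNTD2 (-1.86 ± 0.63 and -0.87 ± 0.40) had smaller deviations without replicate 1. ALG14, of N-glycan assembly (-1.03 ± 0.33 and -1.08 ± 0.32), and FAM127C (-0.80 ± 0.29 and -0.74 ± 0.29) had nearly the same in both sets. The non-coding or pseudogene entries RP11-10K16.1 (-1.45 ± 0.39 and -1.24 ± 0.40), RP11-298J20.4 (-0.84 ± 0.29 and -0.79 ± 0.28) and HLA-J (-1.73 ± 0.63 and -1.17 ± 0.43) overlap or resemble other genes, and their reads are uncertain.

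**Figure D5:**
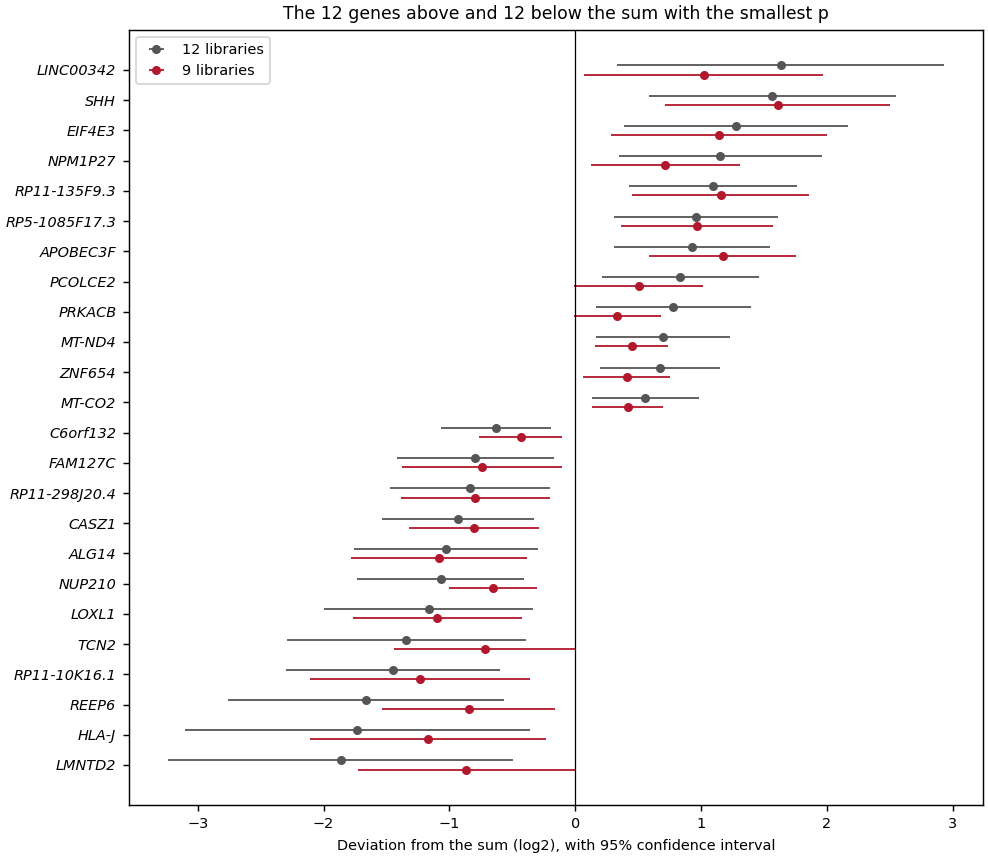
Deviation from the sum (log2, horizontal axis) with its 95% confidence interval for the 12 genes above and the 12 below the sum with the smallest p in 12 libraries (grey), and the same genes in 9 libraries (red). SHH lies at 1.57 and 1.61, and LMNTD2 moves from -1.86 to -0.87.

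Closeness to the sum followed the level of a gene. Of 5 equal bins by mean count, the lowest, 50 to 159 counts, had 69.9% of its genes within 0.5 of the sum in 12 libraries and 81.2% in 9, and the highest bin had 94.6% and 99.6%, with median standard errors of 0.47 and 0.35 against 0.25 and 0.12. The span of the gene on the chromosome, known for 12842 genes, went with smaller differences, with 81.5% within 0.5 in the shortest of 5 bins and 86.6% in the longest. By biotype, 58 of 87 processed pseudogenes were above the sum in 12 libraries and 57 in 9, with medians of 0.12 and 0.17, and 229 antisense genes had medians of -0.035 and -0.048.

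Across the genes, the deviation in 12 libraries correlated with the shift of replicate 1 against replicates 2 and 3 at Pearson r = -0.654, and in 9 libraries at -0.0047. These are correlations across genes, which are not independent replicates, and the deviation in 12 libraries holds the same libraries as the shift.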

How the data were processed

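Per the study's methods, libraries from rRNA-depleted RNA kept strand, STAR mapped the reads onto GRCh38 (Ensembl 87 genes) and featureCounts assigned them. The deposited counts are unnormalized reads of each gene. The deposited TPM values, which the authors estimated per library, served as an alternative, and 12 FPKM columns were not used. edgeR 4.0.16 in R 4.3.3 fitted the 4 groups of counts in 1 quasi-likelihood model with TMM factors, after filterByExpr (minimum count 10, minimum total 15, minimum proportion 70%), without a block. The contrast was siNELFA+siYAP minus siNELFA minus siYAP plus siControl, with Benjamini-Hochberg adjustment over all 18525 genes tested. A standard error is the log2 value divided by the square root of F, and 95% confidence intervals use the test's degrees of freedom. CPM use TMM factors. Values within a replicate number used log2 of CPM plus 0.01. The fit of 9 libraries kept the same tested genes. Alternatives were DESeq2 1.42.0, limma 3.58.1 on log2 of TPM, RLE factors, other filters, blocks and each library left out. The deviation within replicate numbers, list medians on TPM, and RLE factors and DESeq2 in 9 libraries were added with the values in view. The test was first tried on simulated data.

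The replicate numbers were checked as pairs. Deviations from group means correlated between libraries of 1 number by 0.637 to 0.884 in the 3 groups other than siNELFA+siYAP, and by -0.055 to 0.03 with that group, so the block is given as an alternative. Lists were written from general knowledge, and a symbol with 2 gene IDs entered once. Named are NELFA, YAP1, CTGF, CYR61, ANKRD1 and ALDH9A1, the 12 genes above and 12 below the sum with the smallest p, and the list members with the highest or lowest deviation; further list members were picked with their values known. The genes described and the lists were chosen with earlier results of these data known.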

Additional observations from a re-analysis of the deposited data

How the results depend on the processing

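The count of genes past the adjusted threshold stayed at 0 under every alternative but 1. Under the other alternatives, the share of genes within 0.5 of the sum ran from 75.2% to 95.1%, against 86.2% in the main fit. The median deviation ran from -0.034 to 0.14 under them. The exception was the replicate block with the double knockdown libraries in number 1, the number in their library names, which gave 4971 genes past the adjusted threshold, 6318 at an unadjusted p under 0.05, a median deviation of 0.029 and 57.9% of genes within 0.5; it removes from the double knockdown the shift of replicate 1, which those libraries did not show. The count at an unadjusted p, 176 in all 12 libraries, was 483 with the replicate block by title numbers, 354 in 9 libraries, 347 in 9 with RLE factors, 284 without the filter on low counts, 284 at a mean of 10 or more counts, 93 at 200 or more, and 413 and 414 by limma on TPM (log2, pseudocount 1 and 0.1). On TPM the median deviation over all genes was 0.13 and 0.14, and the lists did not all shift alike. Relative to the median of all genes, the aldehyde dehydrogenases went from -0.19 by edgeR to -0.35 on TPM in 12 libraries. The extracellular matrix list went from -0.39 to -0.15. Leaving out 1 library at a time gave 0 adjusted calls, 69 to 454 genes at an unadjusted p, medians of -0.034 to 0.0045 and 75.2% to 94.1% within 0.5; the count was 454 without siControl replicate 1, 70 and 423 without siNELFA replicates 1 and 3, 69, 272 and 420 without siYAP replicates 1, 2 and 3, and 78, 89 and 74 without each double knockdown library.

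Among named genes, values near 0 changed sign: YAP1 to 0.0055 with RLE factors, 0.0063 without the filter, 0.034 in 9 libraries, 0.0059 by DESeq2 and between -0.094 and 0.073 with 1 library left out; CTGF to 0.10 and ALDH9A1 to 0.053 with the block in number 1; CTGF between -0.22 and 0.045 with 1 library left out; CYR61 to 0.035 and NELFA to 0.017 in 9 libraries. The cause was not tested. Relative to the median of all genes on log2 of TPM, the mitochondrially encoded genes stayed above the sum (0.73 in 12 libraries, 0.32 in 9) and so did the metallothioneins (0.72 and 0.23). Depth limits the low end: below a mean of 159 counts, the median standard error of a deviation was 0.47 in 12 libraries.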
